A study of Mus musculus with 33 samples.

Results

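The 45 genes described here encode the factors that start, extend and end protein synthesis on cytosolic ribosomes in the mouse. They were taken by symbol from a fixed list of initiation and elongation factors and their close partners, and all 45 were found among the 54752 genes of the RNA files and among the 22523 genes of the footprint files. All 45 also passed the filter on low counts in each comparison. By role, 8 act in elongation or regulate it, 8 act at the start codon, in eIF2 or as mimics of eIF5, and 5 are subunits of eIF2B. A further 12 are subunits of eIF3, and 9 bind the cap, the poly(A) tail or unwind RNA. The last 3 are the release factors Etf1 and Gspt1, and Eif6, which keeps subunits apart. Eif5b, which joins the subunits, is counted with the start codon factors.

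The mice were 8 weeks old and differed in n-Tr20, a neuronal arginine tRNA that decodes AGA. Forebrain RNA came from 4 C57BL/6NJ (B6N) mice with wild-type n-Tr20, 4 B6N mice homozygous for a deletion of n-Tr20, 4 C57BL/6J (B6J) mice, whose own n-Tr20 allele is labelled hypomorphic, 4 B6J mice with the transgene Tg(n-Tr20), which carries the B6N form, and 4 B6J mice homozygous for the deletion. The transgenic mice thus keep the hypomorphic B6J allele beside the transgene, and the promoter of the transgene is not given in the sources used here. Hippocampus gave 3 libraries of poly(A) RNA and 3 of ribosome footprints, the RNA fragments shielded by translating ribosomes, from each of B6N and B6N knockout mice. n-Tr20 itself was not analysed here, so the genotype labels have no direct check in these counts.

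Initiation begins when eIF2, bound to GTP, brings the initiator tRNA to the small ribosomal subunit with eIF1, eIF1A, eIF5 and the large scaffold eIF3. The eIF4 factors recruit this complex to capped mRNA, eIF5B joins the subunits at the start codon, and eIF2B then recharges eIF2 with GTP. In the integrated stress response, kinases such as GCN2, which senses stalled or uncharged tRNA, phosphorylate the alpha subunit of eIF2, which blocks eIF2B, lowers general initiation and favours Atf4 translation. Elongation depends on eEF1A, which delivers aminoacyl-tRNA, and eEF2, which moves the ribosome along. In neurons eEF1A2 takes over from eEF1A1 during development. Many mRNAs of elongation factors and some of eIF3 start with a terminal oligopyrimidine (TOP) tract, a C followed by a run of pyrimidines at the very 5′ end, through which mTOR and LARP1 control their translation. A set of 18 factors, the 5 subunits of eEF1, eEF2 and the 12 subunits of eIF3, is called TOP-type below by family membership, not by a measured tract.

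The listed start sites were searched for such a tract. Promoter sequences around RefSeq starts (GRCm38.p6) were at hand for 35 of the 45 factors. The 30 bases centred on each listed start were searched on the sense strand for a C followed by at least 5 bases of C or T. Capitals mark such a run in the windows below, which show the 4 TOP-type factors with a run and the TOP-type factors without one that rose in a knockout.

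Eef1a1: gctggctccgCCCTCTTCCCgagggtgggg
Eef1a2: tCTCTCCTggtctgcgttctcgctcactgg
Eif3f: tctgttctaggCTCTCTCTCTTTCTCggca
Eif3l: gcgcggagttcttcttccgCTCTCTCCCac
Eef2: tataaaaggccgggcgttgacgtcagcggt
Eif3a: cggggctcgggcggcggcgctgccgccgcg
Eif3b: ctagcggcgcgcggtgacttctgggagtcg
Eif3c: ctcacctgctcagagggactcggcagctta

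These windows lie at chr9:78481710-78481739 (minus strand, Eef1a1), chr2:181157001-181157030 (minus, Eef1a2), chr7:108934400-108934429 (plus, Eif3f), chr15:79075208-79075237 (plus, Eif3l), chr10:81176616-81176645 (plus, Eef2), chr19:60790679-60790708 (minus, Eif3a), chr5:140419290-140419319 (plus, Eif3b) and chr7:126566352-126566381 (minus, Eif3c). The runs of Eef1a1 and Eif3f span the listed start, that of Eif3l begins just downstream of it, and that of Eef1a2 lies wholly upstream of it, so at this start it is not a terminal tract. A run was present in 9 of the 35 factors (25.7%), close to the 25.5% of 27025 genes. Among TOP-type factors it was present in 4 of 13 (30.8%), and the Eef2, Eif3a, Eif3b and Eif3c windows held none. In a narrower list of factors better known for a TOP tract, named further on, 4 of 6 with a promoter sequence held a run (66.7%, and 16.7% on the other strand). Of these 4, the runs of Eef1a2 and Eif4b lie wholly upstream of the listed start, so there they are not terminal tracts. On the other strand the share was 22.9% of factors and 28.6% of genes. An annotated start can differ from the start used in these cells, so a window without a run says only that these letters are not in it. The amino acid response motif TGATGNAAN, searched on both strands of the 300 bases around each start (from 250 before it), was in 1 of 35 factors (2.86%, at one start of Eef2k) and in 4.5% of genes.

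Totals ran from 14.7 M to 38.5 M estimated counts (M, 1000000) in the 21 forebrain libraries, 35.8 M to 60.4 M counts in hippocampus RNA and 7.62 M to 17.9 M in footprints. Levels are in CPM (counts per 1000000, with TMM-scaled library sizes), and the common coefficient of variation between libraries of a group was 7.04% in batch 1 forebrain, 14% in hippocampus RNA and 12.9% in footprints. The 4 B6J knockout libraries were sequenced in batch 2 and the other groups in batch 1, with transgenic mouse 4 in both. In B6J knockout, 3 of 4 libraries held Xist at 335.5 to 369 CPM, against 0.66 to 2.05 CPM in all other forebrain libraries, so these mice were mostly female and the other groups male by this gene. In hippocampus, knockout RNA library 1 held Xist at 1243 CPM and Ddx3y at 0.34 CPM, while footprint library 1 of the knockout held Ddx3y at 45.5 CPM, so RNA and footprint libraries of that number differ in sex markers. The labels give hippocampus mice as C57BL/6NJ, while file headers and part of the protocol name B6JN. Neuron markers summed to 4852 to 5302 CPM in forebrain and 6526 to 7526 CPM in hippocampus RNA, with none at 0 in any group. All samples are whole tissue, in which fewer cells of a type and less RNA per cell cannot be told apart.

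Per transcript length, Eef1a1 was the most abundant factor in B6N forebrain, at 525 ± 40.3 TPM (transcripts per 1000000; SD, n = 4). Eif4a2, the neuronal form of the RNA helicase eIF4A, followed at 202 ± 6.80 TPM, above Eef2 at 120 ± 5.06 TPM, and none of these 3 ranges overlapped. Eef1a2 (87.7 ± 2.98 TPM) and Eif4g2 (86.5 ± 2.99 TPM), an eIF4G relative that cannot bind the cap-binding protein, did not differ beyond their spread. The level of Eif4a1, the other helicase form, was 60.8 ± 4.10 TPM and that of the cap-binding protein Eif4e 47.9 ± 2.74 TPM. Pabpc1, the cytoplasmic poly(A)-binding protein, stood at 19.1 ± 0.905 TPM.

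The guanine exchange complex eIF2B was among the lowest, with its 5 subunits at ranks 37, 38, 41, 44 and 45. They ran from Eif2b5 (8.93 ± 0.863 TPM), its catalytic subunit, down to Eif2b3 (5.10 ± 0.116 TPM). Between them, Eif3f, Eif5b, Eif2s1 and Eef2k took ranks 39, 40, 42 and 43. Subunits of eIF3 spread from 38.0 ± 0.968 TPM (Eif3k) to 7.62 ± 0.484 TPM (Eif3f), although they enter 1 complex. Eif2s1, which encodes the alpha subunit of eIF2, was also low at 7.29 ± 1.06 TPM. Together the 45 factors made up 0.186% to 0.205% of all TPM in the 4 mice.

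**Figure D1:**
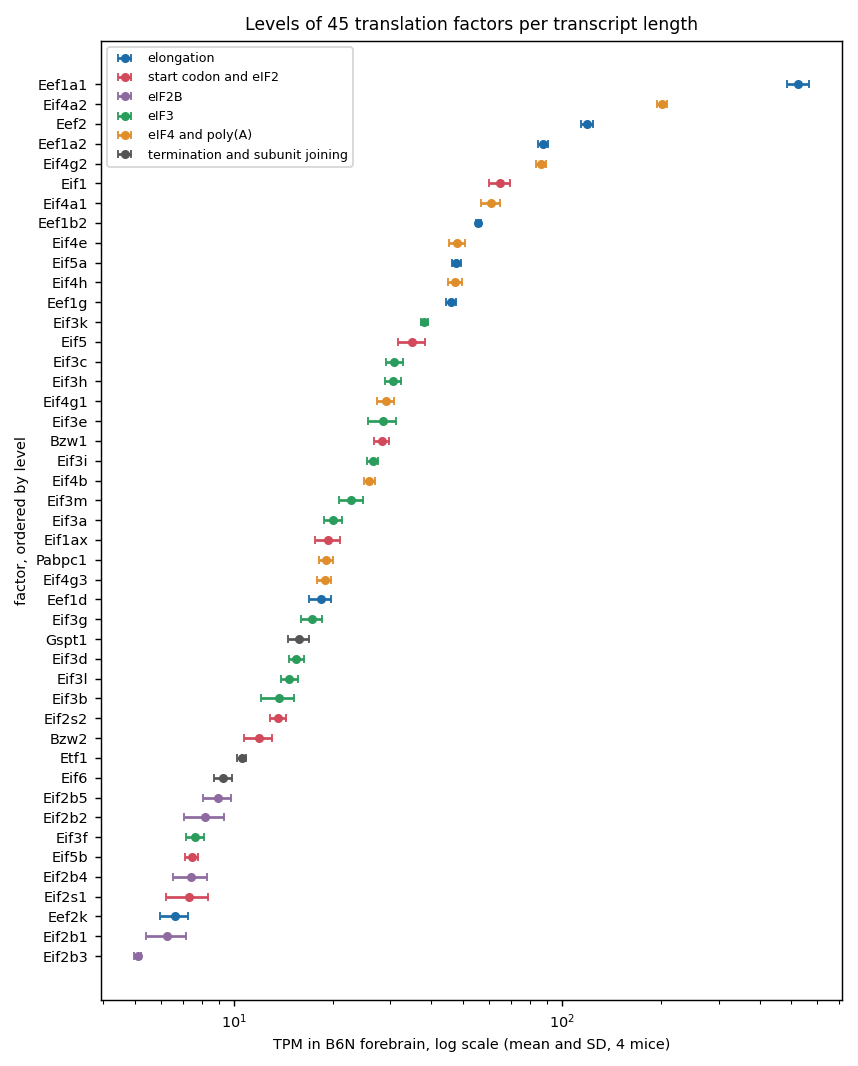
TPM (log axis, mean and SD over 4 B6N forebrain libraries) of each of the 45 factors, ordered by level and coloured by role. Eef1a1 is at 525 TPM, and the eIF2B subunits lie at the low end, from 5.10 to 8.93 TPM.

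Part of this RNA is not annotated as coding. In 21 of the 45 factors, protein coding transcripts took a median of at least 95% of a gene's estimated counts, and in 4 (Eif4a2, Bzw2, Eif5b and Eef1b2) under 70%. In B6N, Eif4a2 had 38.5% to 45.2% of its counts on transcripts annotated for nonsense-mediated decay, and 47.4% to 54.0% on coding ones. Bzw2, a mimic of eIF5 that competes with it and tightens start codon choice, had 38.5% to 42.9% on transcripts with a retained intron. All counts of Eif3c were on coding transcripts in every forebrain library.

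Loss of n-Tr20 in B6N forebrain raised a small set of initiation factors by about the same modest amount. Against wild-type B6N, 5 of the 45 factors rose and none fell (edgeR quasi-likelihood test, adjusted p under 0.05), where 1.91% of all genes tested were called, 1.11% as higher and 0.807% as lower. Of the 5, 3 belong to start codon selection (Eif2s1, Eif2s2 and Bzw1), 1 to eIF3 (Eif3c) and 1 to the eIF4 group (Eif4g2). None of the 8 elongation factors, the 5 eIF2B subunits, Etf1, Gspt1 or Eif6 passed. The median log2 fold change of the 45 was 0.05, with 33 above 0, and that of all genes was 0.00.

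Eif3c encodes a core eIF3 subunit that contacts eIF1 and eIF5 at the start codon. It stood at 151, 151, 150 and 146 CPM in B6N and at 175, 179, 177 and 167 CPM in the knockout. All knockout libraries were above all B6N libraries, a log2 fold change of 0.22 ± 0.037 (SE; 1.17-fold; edgeR adjusted p = 0.000617). It passed whichever library was left out (0.21 to 0.24) and under all 6 other settings. The other 11 eIF3 subunits did not pass, with Eif3a at 156, 152, 157 and 157 CPM in B6N and 168, 160, 167 and 168 CPM in the knockout (0.09 ± 0.038, adjusted p = 0.302). For Eif3a the groups did not overlap either, but the step was smaller than that of Eif3c.

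Eif4g2, which encodes an eIF4G relative used in cap-independent initiation, was at 345, 352, 353 and 330 CPM in B6N and at 429, 405, 397 and 364 CPM in the knockout. The groups did not overlap, and the log2 difference was 0.21 ± 0.040 (1.15-fold, edgeR adjusted p = 0.00356). Bzw1, another eIF5 mimic, rose from 141, 138, 148 and 142 CPM to 161, 168, 164 and 159 CPM, again without overlap (0.20 ± 0.039, 1.15-fold, edgeR adjusted p = 0.00377). Its paralog Bzw2 was at 33.4, 32.8, 36.6 and 34.7 CPM in B6N and 31.5, 34.1, 34.2 and 36.7 CPM in the knockout, with overlapping groups (-0.01 ± 0.052, adjusted p = 0.963).

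Subunits of eIF2 rose with less margin. Eif2s2, the beta subunit, was at 46.9, 46.8, 49.4 and 48.2 CPM in B6N and 56.6, 54.4, 52.0 and 57.1 CPM in the knockout, without overlap (0.20 ± 0.049, edgeR adjusted p = 0.0226). Eif2s1, whose product is the phosphorylation target of the stress kinases, was at 30.6, 28.9, 33.1 and 28.7 CPM and at 38.8, 35.0, 33.7 and 34.4 CPM (0.22 ± 0.060, edgeR adjusted p = 0.049). All 4 knockout libraries again exceeded all 4 controls. Both calls were lost in 6 of 8 fits that left out a library, with the highest adjusted p 0.238 for Eif2s1 and 0.0912 for Eif2s2, each without B6N knockout 1. When average transcript length was entered as an offset, 1 of the 5 factors (Eif3c) was called and 174 genes, 158 of them among the 481 called without it.

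The other 40 factors did not pass. In 15 of the 45, the 5 called ones included, every knockout library lay above every control, but no share of all genes was computed to set beside this. Eef1a1 was at 1472, 1428, 1354 and 1370 CPM in B6N and 1442, 1463, 1443 and 1467 CPM in the knockout (0.05 ± 0.033, adjusted p = 0.624). Eef2 was at 722, 737, 722 and 707 CPM and at 764, 774, 765 and 718 CPM (0.06 ± 0.035, adjusted p = 0.477). The groups overlapped for both, and for Eif2b5, at 38.3, 37.3, 39.6 and 39.8 CPM and 40.9, 42.6, 42.9 and 39.4 CPM (0.09 ± 0.046, adjusted p = 0.387). Of the 5 eIF2B subunits, 4 were below 0, with a median of -0.09. Among markers, 2 of 8 neuron genes were lower, while the summed neuron level was 5089 to 5163 CPM in B6N and 5006 to 5270 CPM in the knockout. Choroid plexus and meninges markers were below 0 in 8 of 8 each (medians -0.38 and -0.16, none called), and the part of cell composition in these changes was not tested.

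**Figure D2:**
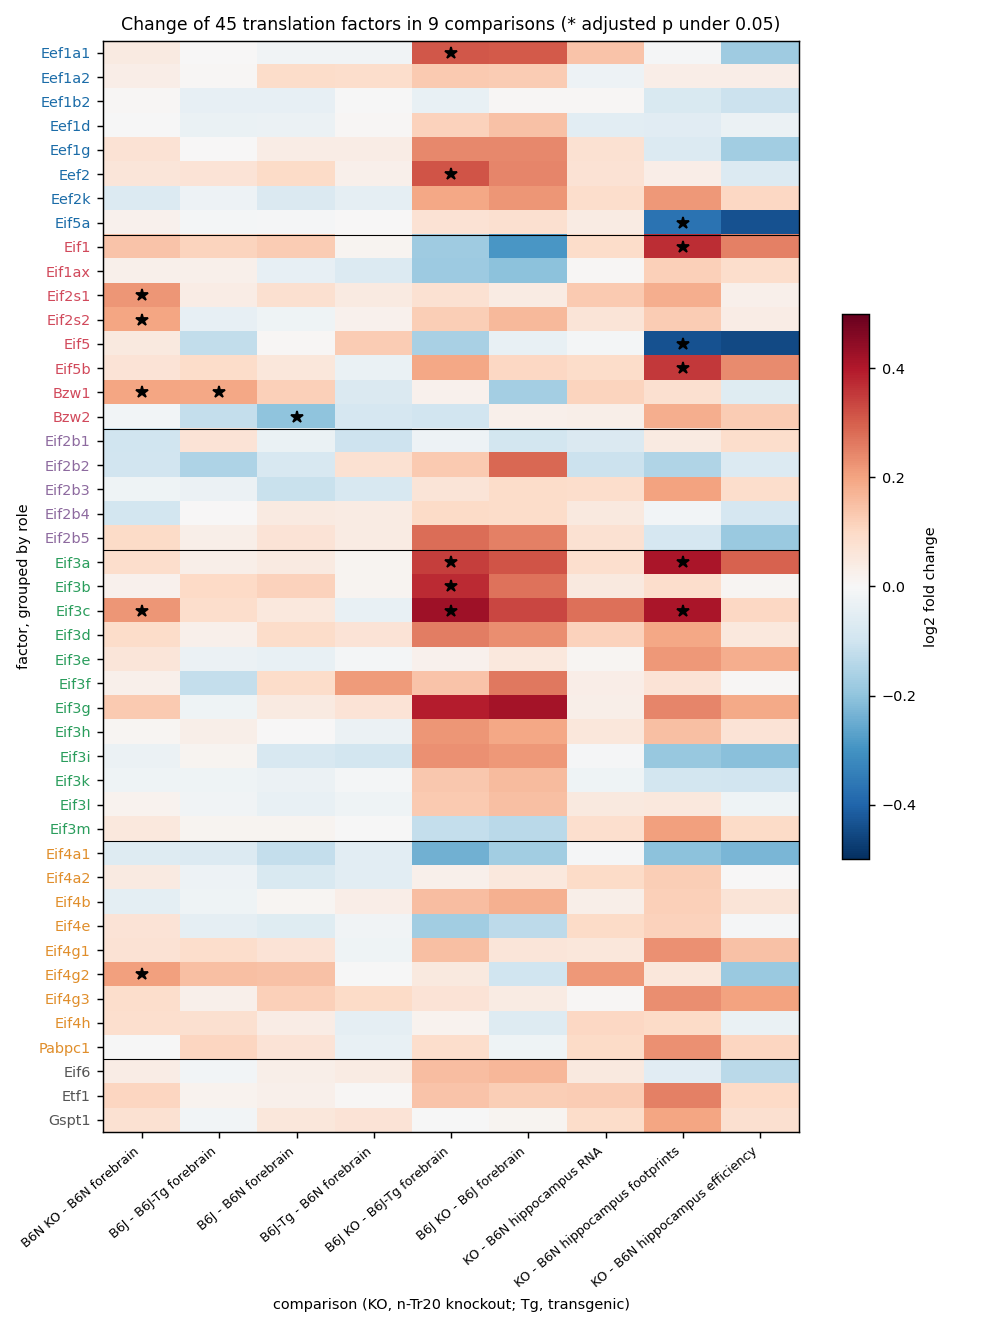
Log2 fold change (colour) of the 45 factors (rows, by role) in 9 comparisons (columns), with stars for an adjusted p under 0.05. Eif3c carries a star in B6N knockout, B6J knockout and hippocampus footprints, and no factor carries one in the comparison of transgenic B6J with B6N, in B6J knockout against B6J, in hippocampus RNA or in efficiency.

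The milder loss in B6J gave 1 call. Against B6J with the transgene, which restores n-Tr20 in the same strain, 1 of 45 factors was higher in B6J and none lower, where 0.25% of all genes were called, 0.171% as higher and 0.0795% as lower. This was Bzw1, at 131, 129, 141 and 140 CPM in the transgenic mice and 150, 156, 163 and 149 CPM in B6J, with no overlap (0.19 ± 0.039, 1.14-fold, edgeR adjusted p = 0.0205). The call was lost in 3 of 8 fits without 1 library (highest adjusted p = 0.12, without B6J 3), in a fit of the 2 groups alone, and with the length offset. Eif4g2 was at 338, 347, 356 and 336 CPM in transgenic and 396, 373, 394 and 364 CPM in B6J mice, also without overlap, but did not pass (0.15 ± 0.041, adjusted p = 0.124). Eif3c was at 144, 147, 149 and 142 CPM and at 165, 153, 153 and 148 CPM, with overlap (0.09 ± 0.037, adjusted p = 0.382). Choroid plexus markers had a median of 1.05 here, with 7 of 8 above 0, and meninges markers one of -0.27, with none of 8 above 0 (none called in either list), and their part was not tested.

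Between the strains, the number of factors called depended on the fit. In B6J against B6N, 1 factor was lower and none higher, where 1.73% of genes were called, 1.21% as higher and 0.513% as lower. This was Bzw2, at 30.0, 31.3, 29.0 and 29.0 CPM in B6J (-0.20 ± 0.054, edgeR adjusted p = 0.0454). The B6J values were all below the B6N values given above, but the call was lost in 7 of 8 fits without 1 library, with the replicate block and with the length offset. B6J levels of Eif4g2, given above, were all above those of B6N (0.15 ± 0.041, adjusted p = 0.0531). Eif4g2 did pass by DESeq2 (adjusted p = 0.0265), with the replicate block (0.0219) and in a fit of the 2 groups alone (0.00576). That fit called 6 factors, 4 higher and 2 lower, and 990 genes, against 434 genes in the main fit. DESeq2 called 3 factors, Bzw2, Eif4g2 and Eif4a1 (-0.12, adjusted p = 0.0487). The groups did not overlap for 10 of 45 factors, 7 higher and 3 lower, also with no share of all genes computed to set beside this. Meninges markers were also lower in B6J (median -0.49, 2 of 8 called), and their part was not tested. In transgenic B6J against B6N no factor passed, and none by DESeq2, where edgeR called 0.366% of genes, 0.27% as higher and 0.0954% as lower. At an unadjusted p under 0.05 stood 3 of the 45 factors and 2230 of all 25151 genes. The 45 differences lay between -0.10 and 0.21 with a median of 0.00.

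**Figure D3:**
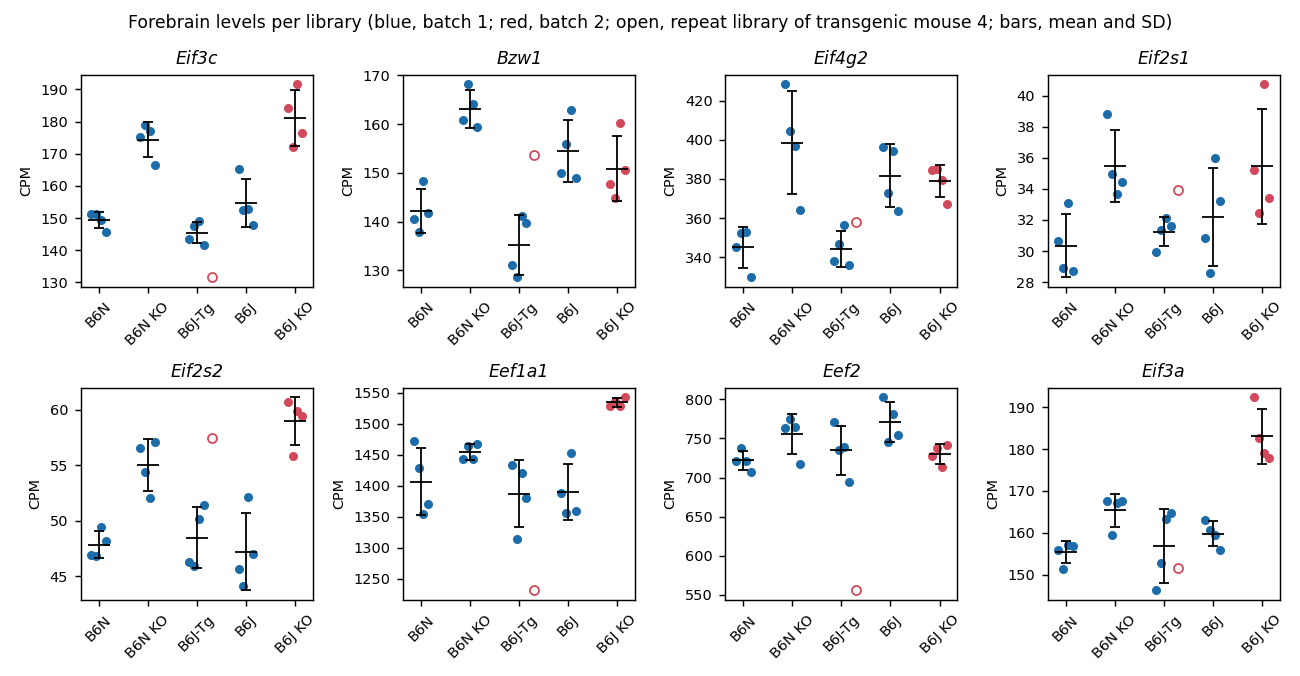
CPM of 8 factors in each forebrain library, with mean and SD per group (4 mice each). For Eif3c, all knockout libraries of both strains (167 to 192 CPM) lie above all other libraries (132 to 165 CPM).

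Complete loss of n-Tr20 in B6J gave 5 calls, of which Eif3c was also called in B6N knockout. Against transgenic B6J, with transgenic mouse 4 as the bridge between batches, 5 of 45 factors rose and none fell, where 0.738% of genes were called, 0.546% as higher and 0.192% as lower. All 5 are TOP-type by family. They were the tRNA carrier Eef1a1 and the translocase Eef2 in elongation, and Eif3a, Eif3b and Eif3c, the subunits at the core of the eIF3 scaffold. Of the 18 TOP-type factors 16 were above 0 (median 0.22), and of the other 27 factors 19 were above 0 with none called (median 0.07). Without the bridge, as plain differences of group means, the medians were 0.068 (11 of 18 above 0) for TOP-type and 0.075 (17 of 27) for the other factors. A difference between the classes was not tested. The calls also moved with the fit. With no filter on low counts 1 was left (Eif3c), and with the length offset those of Eef1a1, Eif3a and Eif3b were lost. With mouse 4 counted among the other transgenic mice beside a batch term, 12 factors passed, 11 higher and 1 lower. The 5 were among the higher, and the lower was Eif4a1 (-0.215, edgeR adjusted p = 0.0338). That fit called 1800 genes, against 188 in the main fit. With the replicate block added to it, 11 factors and 1214 genes passed, with Eif5 as the 1 lower factor (-0.20, edgeR adjusted p = 0.047). The median of 79 ribosomal protein genes was 0.16, with 3 called higher.

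Eif3c had the largest fitted change of the 45, at 184, 172, 192 and 177 CPM in the knockout, all above the transgenic libraries given above and above the batch 2 library of transgenic mouse 4 (132 CPM). The log2 difference was 0.42 ± 0.081 (1.34-fold, edgeR adjusted p = 0.00559). It passed in all 7 fits without 1 library and under each other setting that used both batches. None of these fits left out transgenic mouse 4, the bridge. The plain difference of group means with no batch adjustment was 0.32. Eif3a was at 192, 183, 179 and 178 CPM in the knockout, against 146, 153, 163 and 165 CPM in the transgenic mice and 152 CPM in the repeat library (0.34 ± 0.077, edgeR adjusted p = 0.0225). The groups did not overlap, and without batch adjustment the difference was 0.22. Without that adjustment Eif4a1 differed more than Eif3c (-0.36). It was at 127, 122, 120 and 134 CPM in the knockout, 161, 159, 167 and 158 CPM in the transgenic mice and 146 CPM in the repeat library, so every knockout library lay below all of these (-0.24 ± 0.082, adjusted p = 0.19).

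For Eef1a1, Eef2 and Eif3b the call rested more on the bridge than for Eif3c and Eif3a. Eef1a1 was at 1528, 1537, 1529 and 1542 CPM in the knockout and at 1433, 1314, 1421 and 1380 CPM in the transgenic mice, and the repeat library read 1231 CPM. Groups did not overlap, the fitted difference was 0.31 ± 0.066 (edgeR adjusted p = 0.0165) and the unadjusted one 0.145. Eef2 was at 728, 737, 714 and 742 CPM in the knockout and 770, 735, 739 and 695 CPM in the transgenic mice, so the groups overlapped. Its fitted difference of 0.31 ± 0.068 (edgeR adjusted p = 0.0185) came with a repeat library at 556 CPM, and the unadjusted difference was -0.01. Eif3b was at 56.1, 61.6, 55.3 and 55.5 CPM against 53.4, 52.0, 50.4 and 53.5 CPM, with 45.1 CPM in the repeat library (0.37 ± 0.091, edgeR adjusted p = 0.0425, unadjusted 0.13), without overlap. Leaving out B6J knockout 2 took Eif3b to an adjusted p of 0.064.

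The bridge itself moved by class. In the repeat library of transgenic mouse 4, 16 of 18 TOP-type factors were lower than in its batch 1 library (median -0.17), while 17 of the other 27 were higher (median 0.04). Since this pair alone sets the batch difference, its error enters all fitted B6J knockout values in common. Within batch 2, where the 4 knockouts meet that single library and its spread is assumed to match theirs, the log2 differences were 0.31 for Eef1a1, 0.39 for Eef2, 0.26 for Eif3a, 0.33 for Eif3b and 0.45 for Eif3c. No p-value is given for these, since 1 library shows no spread of its own and the same library is the bridge. The single knockout library with male markers, number 4, was the highest of the 4 for Eef1a1 (1542 CPM) and Eef2 (742 CPM). It was the lowest for Eif3a (178 CPM) and lay between the others for Eif3b (55.5 CPM) and Eif3c (177 CPM). The part of sex in these differences was not tested.

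Apart from Eif3c, the factors called in B6N knockout did not pass here. Eif2s2 was at 60.7, 55.8, 59.9 and 59.4 CPM in B6J knockout and at 46.3, 45.9, 50.2 and 51.4 CPM in the transgenic mice, without overlap, but the repeat library read 57.5 CPM (0.12 ± 0.092, adjusted p = 0.67). Eif2s1 was at 35.2, 32.5, 40.7 and 33.4 CPM against 30.0, 31.3, 32.1 and 31.6 CPM, with 33.9 CPM in the repeat library (0.08 ± 0.133, adjusted p = 0.891). Bzw1 was at 148, 145, 160 and 151 CPM, and its repeat library read 154 CPM (0.02 ± 0.082, adjusted p = 0.959). For these genes the repeat library lay within the knockout range. Eif4g2 was at 385, 385, 379 and 367 CPM against 358 CPM in the repeat library (0.05 ± 0.082, adjusted p = 0.891).

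Markers of other tissue moved with this comparison. Choroid plexus markers summed to 411 to 580 CPM in B6J knockout and 19.9 to 73.1 CPM in transgenic libraries, with a median log2 change of 1.46 and none of 8 called, and oligodendrocyte markers had a median of -0.34, also with none called. Their part in the factor changes was not tested. Within B6J, library 1 held these choroid plexus markers at 494 CPM and the highest Eif3c, at 165 CPM, while the other 3 held 14.8 to 18.3 CPM and Eif3c at 148 to 153 CPM. Within B6N knockout, library 3 held 298.5 CPM with Eif3c at 177 CPM, and the other 3 held 16.9 to 18.9 CPM with Eif3c at 167 to 179 CPM. Within B6N the markers ran from 18.0 to 204 CPM, with Eif3c at 146 to 151 CPM. In transgenic libraries they ran from 19.9 to 73.1 CPM with Eif3c at 142 to 149 CPM, and in B6J knockout from 411 to 580 CPM with Eif3c at 172 to 192 CPM.

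Against B6J with its own allele, no factor passed in B6J knockout, with 12 at an unadjusted p under 0.05 and 4 called by DESeq2, where 0.106% of genes were called, 0.0903% as higher and 0.0157% as lower. The 2 comparisons share the knockout libraries and the bridge, so their values are given only side by side. For Eif3c the difference was 0.33 ± 0.090 (adjusted p = 0.17) and for Eef1a1 0.31 ± 0.073 (adjusted p = 0.102). DESeq2 gave adjusted p = 0.0111 and 0.00247 for these genes, with Eef2 (0.0166) and Eif3a (0.00978) as its other calls.

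Whether the knockout acted differently in the strains was tested as the B6J effect (knockout minus transgenic) minus the B6N effect. No factor passed, where 0.243% of genes were called. At an unadjusted p under 0.05 stood 13 factors, with no share of all genes at that threshold computed to set beside this. Eef1a1 had the lowest adjusted p, with a difference of 0.26 ± 0.073 (edgeR adjusted p = 0.123), and Eif3b followed at 0.35 ± 0.102 (adjusted p = 0.137). For Eif3c the difference was 0.20 ± 0.090 (adjusted p = 0.432), for Bzw1 -0.18 ± 0.092 (adjusted p = 0.518) and for Eif2s1 -0.14 ± 0.148 (adjusted p = 0.811). The separate call lists of the strains are therefore not shown to differ for any factor.

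Hippocampus RNA of B6N knockout held no called factor, where 0.0413% of genes were called, 0.031% as higher and 0.0103% as lower. At an unadjusted p under 0.05 stood 2 of the 45 factors and 1536 of all 19352 genes. DESeq2 called 1 factor and 138 genes. Eif3c again had the largest value, at 200, 175 and 192 CPM in B6N and 225, 236 and 228 CPM in the knockout (0.28 ± 0.066, edgeR adjusted p = 0.334, DESeq2 adjusted p = 0.0215). The groups did not overlap, nor did they for Eif4g2, at 586, 574 and 546 CPM and at 632, 657 and 693 CPM (0.215 ± 0.069, adjusted p = 0.478). Of the 45 factors 37 were above 0, with a median of 0.06, against 0.00 over all genes. Eef1a1 was at 2016, 1807 and 2001 CPM and at 2197, 2165 and 2075 CPM, without overlap (0.14 ± 0.077, adjusted p = 0.689). Oligodendrocyte markers were below 0 in 8 of 8 (median -0.41, 6 at an unadjusted p under 0.05; summed level 4684 to 5714 CPM in the knockout and 5600 to 7711 CPM in B6N). Choroid plexus markers were above 0 in 8 of 8 (median 0.84), with libraries from 84.5 to 4195 CPM in the knockout and 112.6 to 2832 CPM in B6N. None of either list was called, and their part in the factor values was not tested.

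Ribosome footprints in the same tissue gave 6 calls. In the knockout 4 factors rose and 2 fell, where 5.35% of all genes were called, 2.19% as higher and 3.16% as lower. Footprints rose on Eif3a and Eif3c in eIF3, on Eif5b, which encodes the GTPase that joins the subunits, and on Eif1, which encodes the guardian of start codon fidelity. They fell on Eif5, the GTPase activator of eIF2, whose mRNA is known for start codon feedback in its upstream reading frames, and on Eif5a, the hypusine-bearing factor that helps ribosomes through difficult peptide bonds. All 6 calls were lost when B6N footprint library 3 was left out, where 32 genes were called, all among the 708.

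Eif3c footprints stood at 369, 399 and 369 CPM in B6N and at 501, 530 and 478 CPM in the knockout, with no overlap (0.41 ± 0.072, 1.33-fold, edgeR adjusted p = 0.0105). Eif3a footprints rose from 276, 272 and 261 CPM to 397, 353 and 321 CPM, also without overlap (0.41 ± 0.084, edgeR adjusted p = 0.018). Their estimates stayed between 0.37 and 0.45 for Eif3c and between 0.32 and 0.48 for Eif3a whichever library was left out. The calls were lost in 2 of 6 such fits for Eif3c and in 4 of 6 for Eif3a. The highest edgeR adjusted p was 0.0862 for Eif3c and 0.112 for Eif3a, each without B6N footprints 3. The remaining 10 eIF3 subunits did not pass, from -0.19 (Eif3i) to 0.25 (Eif3g).

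Eif5 footprints were at 110, 94.9 and 105 CPM in B6N and at 72.4, 81.6 and 75.4 CPM in the knockout (-0.43 ± 0.094, 1.35-fold lower, edgeR adjusted p = 0.0227). Eif5a footprints were at 207, 213 and 239 CPM and at 156, 182 and 174 CPM (-0.37 ± 0.088, 1.29-fold lower, edgeR adjusted p = 0.0292). Neither pair of groups overlapped, but leaving out 1 library ended the Eif5 call in 3 of 6 fits and the Eif5a call in 4 of 6. RNA showed no such step: Eif5 was at 197, 231 and 207 CPM in B6N and 203, 209 and 219 CPM in the knockout (-0.01 ± 0.073), and Eif5a at 211, 194 and 211 CPM and 212, 219 and 203 CPM (0.04 ± 0.063).

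Eif1 footprints were at 55.7, 55.3 and 61.7 CPM in B6N and at 69.6, 79.1 and 75.03 CPM in the knockout (0.37 ± 0.099, edgeR adjusted p = 0.0449). This call was lost in each of 6 fits without 1 library and with the replicate block. Eif5b footprints were at 102, 98.7 and 96.4 CPM and at 136, 130 and 113 CPM (0.35 ± 0.092, edgeR adjusted p = 0.0412). That call was lost in 4 of 6 fits without 1 library and also with the replicate block. For both genes every knockout library exceeded every control. Of the 5 factors called in B6N knockout forebrain, Eif3c passed in footprints and the other 4 did not. Eif4g2 was at 197, 249 and 279 CPM and 252, 255 and 245 CPM (0.055 ± 0.107, adjusted p = 0.809) and Eif2s2 at 37.9, 48.0 and 49.9 CPM and 53.5, 53.4 and 41.1 CPM (0.13 ± 0.136, adjusted p = 0.63). Eif2s1 was at 53.9, 48.3 and 47.0 CPM and 57.7, 60.5 and 50.9 CPM (0.18 ± 0.108, adjusted p = 0.352) and Bzw1 at 122, 147 and 117 CPM and 123, 148 and 137 CPM (0.08 ± 0.104, adjusted p = 0.708).

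**Figure D4:**
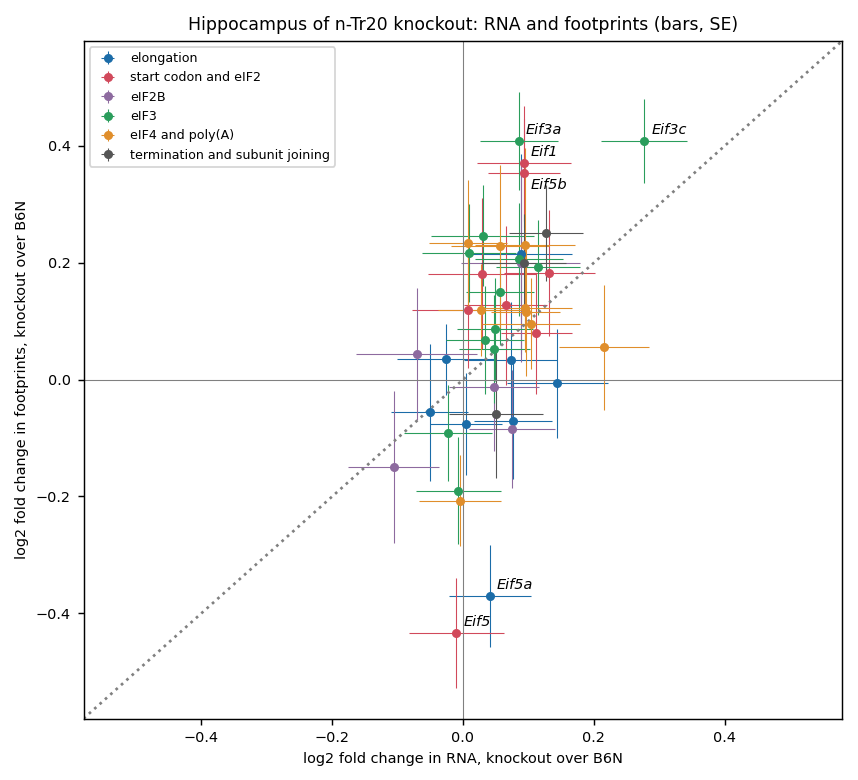
Log2 fold change of the 45 factors in knockout over B6N hippocampus, in RNA (horizontal) and footprints (vertical), with SE bars and the line of equal change dotted. Eif3c is raised on both axes (0.28 and 0.41), while Eif5 and Eif5a lie at -0.43 and -0.37 on the footprint axis with RNA near 0.

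Other cells moved in the footprints too. Of 8 microglia markers 4 were lower in the knockout (summed level 573 to 594 CPM, against 645 to 769 CPM in B6N), 2 of 8 astrocyte markers were lower (4820 to 5134 against 5261 to 6098 CPM), 2 of 8 oligodendrocyte markers and 1 of 8 neuron markers. Endothelial (median 0.465; 297 to 346 CPM in the knockout, 154 to 320 CPM in B6N), choroid plexus (0.54; 8032 to 18390 against 6044 to 13260 CPM) and meninges markers (0.45; 379 to 513 against 300 to 448 CPM) were above 0 in 8 of 8 each, with none called. Neuron markers summed to 9550 to 9650 CPM in the knockout and 9403 to 10230 CPM in B6N. Their part in the factor footprints was not tested. Of 77 ribosomal protein genes, 11 were lower and none higher (median -0.15).

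Translational efficiency, the change in footprints beyond that in RNA, had no called factor among the 45, and edgeR called 0% of genes. At an unadjusted p under 0.05 stood 6 of the 45 factors and 2251 of all 15202 genes. DESeq2 called 494 genes, among them Eif5 and Eif5a and no other factor. The efficiency of Eif5 was -0.45 ± 0.115 (edgeR adjusted p = 0.105, DESeq2 adjusted p = 0.017) and that of Eif5a -0.44 ± 0.109 (edgeR adjusted p = 0.103, DESeq2 adjusted p = 0.00969). Without B6N footprints 1, Eif5a passed by edgeR too (-0.49, adjusted p = 0.0446). For Eif3c the estimate was 0.105 ± 0.096 (adjusted p = 0.66), and for Eif3a 0.30 ± 0.104 (adjusted p = 0.206).

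Within normal B6N hippocampus, the log2 ratio of footprint share to RNA share ran from -1.82 to 1.74 among the factors. Of the 45, 25 had a larger share of footprints than of RNA and 13 a smaller one, where 70.7% of all genes were called, 33.8% as higher and 36.9% as lower. RNA and footprint libraries were made by separate assays, so assay and any batch difference cannot be told apart. Neither share is corrected for the length of the reading frame or of the untranslated ends. The 2 assays also held other tissue to different extents, with choroid plexus markers at 6044 to 13260 CPM in footprints and 112.6 to 2832 CPM in RNA, and meninges markers at 300 to 448 CPM and 67.6 to 85.5 CPM. Their part in the factor ratios was not tested. The values therefore compare genes only as a ratio of 2 shares, and the joint fit scales both assays together, so a ratio can differ from that of the CPM given.

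Subunits of eIF3 and eIF2B lay above 0 over a wide range, where the quartiles of all genes were -0.889 and 0.65. All 12 eIF3 subunits were higher (median 1.01), from Eif3h (0.20) to Eif3k (1.74), and 4 of 5 eIF2B subunits were higher (median 0.96), with Eif2b5 at 0.13 ± 0.077 (adjusted p = 0.142). Eif6, which keeps free large subunits apart, was higher at 0.83, as were the release factors Gspt1 and Etf1 at 0.79 and 0.57. Eif5b, which joins the subunits, was also called higher, but that call was lost in all 6 fits without 1 library (0.12 to 0.18). In the eIF4 and poly(A) group 6 of 9 were lower and 1 higher (median -0.64), where the median of all genes was -0.06. The cap-binding Eif4e was at 95.5, 99.5 and 95.7 CPM in RNA and 45.6, 43.0 and 42.5 CPM in footprints (-0.998 ± 0.077, edgeR adjusted p = 1.12e-08). The subunits of eIF2 went opposite ways, Eif2s1 at 0.485 ± 0.090 and Eif2s2 at -0.34 ± 0.111 (edgeR adjusted p = 0.000162 and 0.0132). The helicases parted, Eif4a1 at -0.64 ± 0.062 and Eif4a2 at 0.26 ± 0.074, and the Eif4a2 call was lost without B6N footprints 2 (adjusted p = 0.0516). Pabpc1 was at 152, 135 and 159 CPM in RNA and 57.4, 91.5 and 75.5 CPM in footprints, without overlap (-0.84 ± 0.144, edgeR adjusted p = 0.000117).

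The extremes included the paralogs of eEF1A. Eef1a1 was at 2016, 1807 and 2001 CPM in RNA but at 540, 706 and 635 CPM in footprints (-1.48 ± 0.093, edgeR adjusted p = 1.06e-09). Eef1a2, the neuronal and muscle form, was at 752, 702 and 743 CPM in RNA and at 1792, 1959 and 1836 CPM in footprints (1.497 ± 0.073, edgeR adjusted p = 6.99e-11). By RNA Eef1a1 led in all 3 libraries, by footprints Eef1a2 did, and their proteins are known to be nearly alike. Of the windows shown above, the Eef1a1 run spans the listed start and the Eef1a2 run lies upstream of it. The Eif3f run also spans its listed start, and Eif3f is among the 12 eIF3 subunits that were all higher. A link between runs and ratios was not tested. Eef1a1 has many processed pseudogenes, so its counts depend on how shared reads were assigned.

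At the low end stood Eef1g, a scaffold subunit of eEF1 (207, 192 and 212 CPM in RNA, 53.1, 50.1 and 52.1 CPM in footprints; -1.82 ± 0.068, edgeR adjusted p = 5.98e-12). Eif1 came next (219, 199 and 221 CPM in RNA, 55.7, 55.3 and 61.7 CPM in footprints; -1.74 ± 0.081, edgeR adjusted p = 4.55e-11). At the high end were Eif3k, a peripheral eIF3 subunit (61.3, 56.9 and 65.1 CPM in RNA, 177, 196 and 181 CPM in footprints; 1.74 ± 0.077), and Eif3d, which can bind the cap itself (40.5, 39.9 and 41.8 CPM in RNA, 111, 112 and 107 CPM in footprints; 1.58 ± 0.069). RNA and footprint values did not overlap for any of these 4 genes. In B6N hippocampus, samples of the same number deviated together across assays, and with the number as a block Eif5b lost its call (0.17, adjusted p = 0.0862) and Bzw2 gained one (0.26, adjusted p = 0.0391).

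**Figure D5:**
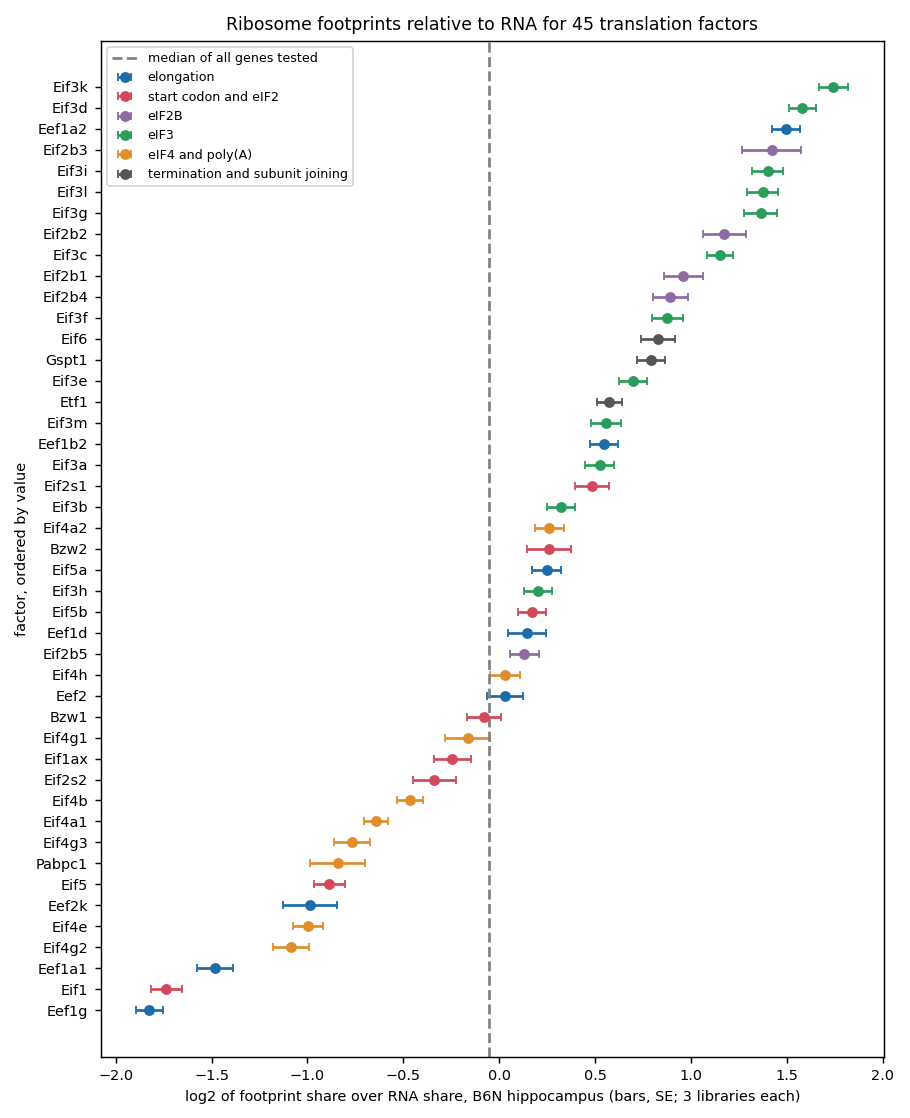
Log2 of the footprint share over the RNA share for the 45 factors in B6N hippocampus, ordered by value, with SE bars (3 libraries per assay) and the median of all genes dashed. The eIF3 subunits lie between 0.20 and 1.74, and Eef1g, Eif1 and Eef1a1 lie lowest, from -1.82 to -1.48.

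Set against the other factors, the TOP-type families had the higher footprint share. The median log2 ratio of the 18 exceeded that of the other 27 by 0.63 ± 0.14 (SD over 3 footprint libraries, 0.52 to 0.78). This gap came with eIF3: without its subunits it was 0.05 ± 0.24. With a narrower list of 11 factors better known for a TOP tract (Eef1a1, Eef1a2, Eef1b2, Eef1d, Eef1g, Eef2, Eif3e, Eif3f, Eif3h, Eif4b and Pabpc1) it turned to -0.205 ± 0.18. Cytosolic ribosomal proteins, the best known TOP mRNAs, lay the other way from eIF3, with 65 of 80 lower, 8 higher and a median of -0.98. In knockout libraries the gap was 0.905 ± 0.022. No test was made of the gap, since members of 1 complex are not replicates.

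Genes around the factors were read from lists. Of 20 further translation factors (paralogs and subunits such as Eif1b, Eif4e2 and Pabpc4), none passed in any forebrain comparison or in hippocampus RNA, and in footprints 1 of 19 rose and 1 fell. Chosen after their values were seen, these were Abce1, which splits ribosomes for recycling (0.32 ± 0.082, edgeR adjusted p = 0.0371), and Eif1b (-0.46 ± 0.109, edgeR adjusted p = 0.0292). Eif1b is a close copy of Eif1, so with Eif1 higher and Eif1b lower the split of reads between them is uncertain. Of 24 measured regulators of the factors, such as Eif4ebp1, the inhibitor of eIF4E, 1 fell in B6N knockout forebrain and none rose. This was Mknk2, a kinase of eIF4E, also chosen after its value was seen (-0.27 ± 0.056, edgeR adjusted p = 0.00652). Eif4ebp1 was at 0.24 ± 0.088 there (adjusted p = 0.201) and at 0.57 ± 0.195 in hippocampus RNA (adjusted p = 0.493). Integrated stress response genes moved more: 11 of 15 rose in B6N knockout forebrain, 8 in B6J knockout against transgenic, 4 in hippocampus RNA and 7 in footprints, with median log2 changes of 0.68, 0.79, 0.53 and 0.60, and none fell. In B6N forebrain no factor changed by more than 0.22, against the median of 0.68 of that list.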

How the data were processed

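The 45 members and all lists were chosen with earlier results of these data known, so a pattern of a list is a description. Forebrain files hold estimated counts and TPM per transcript, deposited by the authors in the layout of kallisto, per the file headers, for 138835 transcripts. Hippocampus files hold whole counts per gene, deposited without normalization. The effective lengths deposited by the authors, another column of the forebrain files, served the length offset. Bowtie2 2.2.3, HISAT2 2.1.0, featureCounts, kallisto 0.42.4 and build mm10 are listed in the submitters' processing notes, with no roles. Per the labels' protocols, ribosomal RNA was removed from forebrain RNA, whose libraries marked the strand. Hippocampus poly(A) libraries came from a kit that does not mark it, so reads of overlapping genes cannot be told apart there.

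Estimated counts were summed per gene and rounded, and TPM were summed per gene. Tests used edgeR 4.0.16 in R 4.3.3 (TMM, filterByExpr with a minimum count of 10, robust quasi-likelihood F test, two-sided, Benjamini-Hochberg over all genes tested), and a gene was called at an adjusted p under 0.05. The 16 libraries of batch 1 were fitted together. B6J knockout was tested over all 21 forebrain libraries with a coefficient of its own for transgenic mouse 4. The 2 hippocampus assays were fitted separately, and efficiency was the assay by genotype interaction over 12 libraries. SE is the log2 fold change over the root of F. The medians behind the TOP-type gap used log2 CPM with a prior count of 2. DESeq2 1.42.0, RLE scaling, no filter, a replicate block, a length offset, protein coding genes alone, the 2 groups alone and single libraries left out were the alternatives. The fits were tested on simulated data. Per-library values are given for factors called in any of the first 9 comparisons (at most 8 each), for the 3 highest and lowest ratios, and for Eef1a1, Eef1a2, Eef2, Eif2s1, Eif2b5, Eif4e, Eif4a1, Eif4a2 and Pabpc1.

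No pair of libraries within a group was as close as counting error (46 pairs, lowest chi-square over degrees of freedom 2.73). The labels do not say that libraries of a group are separate animals in hippocampus, so p-values measure the spread between these samples. Same-numbered B6N hippocampus RNA and footprint libraries deviated together (3 of 3 correlations above 0.1, 0.113 to 0.167), a pairing read from the data, while the knockout ones did not (1 of 3).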

Additional observations from a re-analysis of the deposited data

Results flagged for a closer look

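In 7 of 115 groups of 4 forebrain libraries, 1 library stood apart from the other 3 by Dixon's test, where chance flags about 1 group in 20. Eef1g read 143.8 CPM in B6N 2 (others 136.1 to 137.1) and 150.6 CPM in transgenic B6J 3 (others 138.2 to 140.0). Eif3a was low in B6N knockout 2, at 159.5 CPM (others 167.1 to 167.5). Eif3b was high in B6J knockout 2, at 61.58 CPM (others 55.25 to 56.05), which is the library whose removal ended the call of Eif3b against transgenic mice. Eif3d read 50.42 CPM in transgenic B6J 1 (others 48.77 to 49.01). Eif3k read 48.97 CPM in B6N knockout 2 (others 45.83 to 46.33), and Eif5b read 62.95 CPM in B6N knockout 1 (others 59.57 to 60.07). B6N knockout 2 thus appears for 2 eIF3 subunits, low for 1 and high for the other.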

How the results depend on the processing

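For the 20 factors given by library, and 3 more in footprints against RNA, 2605 values under the alternatives kept direction and side of the threshold, 77 no longer passed, 31 newly passed, and none changed sign with a call. Factors outside these enter only the counts of calls. RLE scaling and protein coding genes alone changed no count of calls by over 1.5 times. As reported, edgeR called 5 factors and 481 genes in B6N knockout, 1 and 63 in B6J against transgenic, 1 and 434 in B6J against B6N, 0 and 92 in transgenic against B6N, 5 and 188 in B6J knockout against transgenic, 0 and 27 in B6J knockout against B6J, 0 and 8 in hippocampus RNA, 6 and 708 in footprints, and 0 and 0 in efficiency, and the TOP-type gap was 0.626. DESeq2 called 157 genes in B6J against transgenic, 460 in B6J knockout against transgenic, 131 genes and 4 factors in B6J knockout against B6J, 3 factors in B6J against B6N, 138 genes and 1 factor in hippocampus RNA, 1080 genes in footprints, and 494 genes and 2 factors in efficiency. With no filter on low counts, B6J against transgenic had 106 genes, B6J knockout against transgenic 1 factor, hippocampus RNA 135 genes and efficiency 38 genes. In fits of the 2 groups alone, B6J against transgenic had 0 factors, and B6J against B6N had 6 factors and 990 genes. With the transcript length offset, B6N knockout had 1 factor and 174 genes, B6J against transgenic 0 and 6, B6J against B6N 0 and 143, B6J knockout against transgenic 3 and 67, B6J knockout against B6J 12 genes, and transgenic against B6N 55 genes. Within batch 2 (4 libraries against 1, assumed to vary alike), B6J knockout against transgenic had 742 genes. With mouse 4 kept in its group and a batch term, B6J knockout had 12 factors and 1800 genes against transgenic, and 4 factors and 297 genes against B6J. The cause of these shifts was not tested.

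With the replicate block and mouse 4 kept in its group, B6J knockout had 11 factors and 1214 genes against transgenic and 4 factors and 178 genes against B6J. With the replicate block, efficiency had 7 genes called, B6N knockout gained Eif1 (0.142, adjusted p = 0.0362), and in B6J against B6N the single call was Eif4g2 (0.147, adjusted p = 0.0219) in place of Bzw2. Footprints of the knockout kept 4 of 6 factors under the block, without Eif1 and Eif5b, and the block moved no other count of calls by over 1.5 times. Same-numbered libraries shared only a number between groups: 2 of 24 correlations in batch 1 forebrain were above 0.1 (-0.2 to 0.171), 1 of 3 in hippocampus RNA and 0 of 3 in footprints. RNA and footprints of B6N hippocampus did pair, at 0.113 to 0.167 in 3 of 3, and there the block called 38 factors, 37 of them shared with the fit without it (Bzw2 in, Eif5b out).

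Leaving out 1 library at a time gave 3 to 5 factors and 262 to 751 genes in B6N knockout, 0 to 1 factors and 16 to 196 genes in B6J against transgenic, 0 to 1 factors and 216 to 426 genes in B6J against B6N, and 53 to 176 genes in transgenic against B6N. It gave 4 to 6 factors and 134 to 402 genes in B6J knockout against transgenic, 10 to 32 genes against B6J, 0 to 10 genes in hippocampus RNA, 0 to 5 factors and 32 to 916 genes in footprints, 0 to 1 factors and 0 to 301 genes in efficiency, and 34 to 38 factors in footprints against RNA. The lowest and highest gene counts, in that order of comparisons, came without B6N knockout 3 and 4, B6J 3 and transgenic 1, B6J 4 and 1, B6N 3 and transgenic 1, B6J knockout 1 and transgenic 1, B6J 4 and 1, knockout RNA 3 and 1, B6N footprints 3 and 1, and, for efficiency at 301, B6N footprints 1. No footprint factor passed without B6N footprints 3 or without knockout footprints 2. Transgenic mouse 4 could not be left out, since batch and knockout then cannot be told apart.

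The TOP-type gap in footprints over RNA was -0.205 with the narrower list, a reversal, 0.905 in knockout libraries, 0.049 without the eIF3 subunits (an alternative added after seeing the data, as was the test of the difference between strains), and 0.549 to 0.68 without 1 library. A version scaled by coding length was not run, since coding lengths were not at hand. Footprint depth, 7.62 M at the lowest, and 3 libraries a group limit the hippocampus results: the SE of the factors' footprint changes (log2) ran from 0.0609 to 0.171.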
